A study of Homo sapiens with 12 samples.

Results

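C1S, DNHD1, MCF2, DISP1, FAM149B1 and KATNBL1 are 6 genes whose RNA was higher after an IRAK inhibitor, followed here over every treatment and cell line. They were chosen by their log2 level in IRAKi against Control on these same arrays, out of 18239 genes with a probe set of their own, so that difference is described and not tested. Each was read from its brightest probe set over the 12 arrays, among those annotated to that gene only. The rule states no cut-off.

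RNA of 3 established human lines of ABC-DLBCL, the activated B cell-like form of diffuse large B-cell lymphoma, was hybridised to 12 arrays, 1 for each line under each of 4 treatments. The lines OCI-LY3, OCI-HBL1 and OCI-LY10 serve as the replicates, so n = 3 in each group. The fit removes each line's own level, so a p-value reflects how far the lines differed in their treatment changes. With 1 array for each line and treatment, culture and array noise cannot be told apart from such differences. Values by line are always given in the order OCI-LY3, OCI-HBL1, OCI-LY10. Control cells carry a label time of 24 h, and their treatment label names nothing further. CPI203 cells received 500 nM of this BET bromodomain inhibitor and are labelled 24 h. IRAKi cells received 50 µM of the IRAK inhibitor, whose compound name the labels do not give, and are labelled 6 h. Combo cells are labelled 24 h and as a combination, with no doses in the label, and the shared protocol gives 50 µM of the IRAK inhibitor for 6 h with or without 500 nM CPI203 for 18 h. IRAKi differs from Control in label time as well as in drug, and these cannot be told apart. Combo and CPI203 share their label time.

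IRAK kinases pass the signal from Toll-like and interleukin-1 receptors, through the adaptor MYD88, to NF-kB, and ABC-DLBCL cells often depend on this route. BET proteins bind acetylated histones and promote transcription. The 6 genes belong to no common pathway. C1S is a serine protease of the first complement component, a blood protein made largely by the liver. MCF2, also called DBL, is a guanine nucleotide exchange factor. DISP1 releases lipid-modified Hedgehog ligands from the cells that make them. DNHD1 is related to the dynein heavy chains, FAM149B1 acts at the primary cilium, and KATNBL1 is a relative of the regulatory subunit of the microtubule-severing enzyme katanin.

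The stretch of 250 bases before the annotated transcription start is shown for 4 of the 5 genes that rose in Combo against CPI203, to let their start regions be compared. The sequences are RefSeq's, on GRCh38.p14, read 5′ to 3′ on the gene's strand, and capitals mark a match to one of the 11 short motifs listed after them. For MCF2 the first of 2 entries is printed.
DNHD1 (chr11:6497030-6497279, + strand): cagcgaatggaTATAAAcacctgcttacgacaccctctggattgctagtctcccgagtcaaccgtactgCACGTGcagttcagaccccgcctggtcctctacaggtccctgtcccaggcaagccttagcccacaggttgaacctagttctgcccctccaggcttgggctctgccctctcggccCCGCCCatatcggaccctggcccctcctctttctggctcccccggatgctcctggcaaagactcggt
KATNBL1 (chr15:34210097-34210346, - strand): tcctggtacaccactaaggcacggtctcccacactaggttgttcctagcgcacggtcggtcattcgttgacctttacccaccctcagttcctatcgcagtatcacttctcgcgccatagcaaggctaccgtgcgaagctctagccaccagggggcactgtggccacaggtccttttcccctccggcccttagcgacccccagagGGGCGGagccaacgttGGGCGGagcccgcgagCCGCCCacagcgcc
FAM149B1 (chr10:73167869-73168118, + strand): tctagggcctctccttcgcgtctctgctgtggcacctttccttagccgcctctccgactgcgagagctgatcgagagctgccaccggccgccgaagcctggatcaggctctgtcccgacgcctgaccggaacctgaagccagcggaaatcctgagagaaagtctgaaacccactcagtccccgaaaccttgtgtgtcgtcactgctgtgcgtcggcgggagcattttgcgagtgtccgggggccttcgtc
MCF2 (chrX:139708168-139708417, - strand): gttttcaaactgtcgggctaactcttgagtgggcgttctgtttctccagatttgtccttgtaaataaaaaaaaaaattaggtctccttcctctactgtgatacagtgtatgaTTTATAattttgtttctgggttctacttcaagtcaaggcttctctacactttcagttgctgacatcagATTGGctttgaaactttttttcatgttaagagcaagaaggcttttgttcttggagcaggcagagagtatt

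MCF2 stood apart from the other 3 in base content. Of the bases, 60.8% were G or C for DNHD1, 63.2% for KATNBL1, 62% for FAM149B1 and 37.6% for MCF2, against a median of 58% over 35116 RefSeq promoters of the same length. The second MCF2 entry held 35.2%, and the 4 entries of DISP1 between 45.6% and 74.8%. The printed MCF2 entry was thus AT-rich, at the 9.51st percentile of all promoters by G and C content. Which annotated start these lines use was not tested.

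Each motif was searched on both strands, with overlaps between motifs allowed, for the 5 genes other than C1S. A gene was counted if any of its entries matched (4 for DISP1 and 2 for MCF2), while the percentages are of single promoter entries. The GC box GGGCGG was present for DNHD1, KATNBL1 and DISP1 and in 42.6% of all promoters. TATAAA occurred for DNHD1, 239 to 234 bases before the start, and for MCF2, 138 to 133 bases before it, and in 10.7% of all promoters. The E-box CACGTG occurred for DNHD1 (6.34% of all promoters), the ETS core CCGGAAG for DISP1 (8.52%) and CCAAT for MCF2 and DISP1 (32.0%). FAM149B1 matched none of the 11. None of these 5 genes matched TGANTCA (AP-1, 6.57%), TGACGTCA (the cyclic AMP element, 1.65%), TGATGCAA (a C/EBP-ATF element, 0.772%), GGNNTTTCC (NF-kB, 5.48%), GCGCATGC (NRF1, 2.63%) or TGACNNNGC (the antioxidant element, 10.9%). These letters are a description of 1 short window per start.

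Levels are given as deposited, on a log2 scale on which 1 unit is a doubling. C1S in Control was 3.04, 4.54 and 6.27. With CPI203 it was 3.63, 4.87 and 6.75, with IRAKi 4.46, 6.17 and 7.89, and with Combo 4.29, 6.44 and 7.94. Within every line both groups with the IRAK inhibitor lay above both groups without it, while between lines the treatment groups overlapped. OCI-LY10 exceeded OCI-LY3 by 3.12 to 3.65 on the log2 scale under each treatment, which is more than any change of C1S with a drug.

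DNHD1 in Control was 5.09, 5.59 and 6.73, and with CPI203 6.35, 6.86 and 7.64. With IRAKi it was 7.25, 7.35 and 8.09, and with Combo 7.96, 8.03 and 8.72. The order Control, CPI203, IRAKi, Combo held in each line, and the 3 Combo arrays lay above the 3 CPI203 arrays.

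MCF2 was dim in Control, at 4.10, 3.93 and 4.95. It stood at 4.90, 5.20 and 6.30 with CPI203, at 5.65, 4.83 and 6.32 with IRAKi, and at 6.24, 6.10 and 7.63 with Combo. Combo was the highest group in each line, and the single agents gave levels close to each other in OCI-LY10.

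DISP1 was 5.53, 5.30 and 6.41 in Control, 6.54, 6.09 and 7.46 with CPI203, 6.31, 6.09 and 7.22 with IRAKi, and 6.91, 6.63 and 7.49 with Combo. The 2 single agents gave nearly the same level of DISP1 in OCI-HBL1, and Combo hardly exceeded CPI203 in OCI-LY10.

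FAM149B1 was 5.89, 6.03 and 6.55 in Control, 7.09, 7.35 and 7.97 with CPI203, 6.67, 7.18 and 7.84 with IRAKi, and 8.08, 7.95 and 8.57 with Combo. Here CPI203 alone gave a higher level than IRAKi alone in each line. KATNBL1 was 6.92, 6.67 and 6.72 in Control, 7.84, 7.05 and 7.32 with CPI203, 8.27, 7.63 and 7.77 with IRAKi, and 8.59, 7.79 and 8.05 with Combo. For both genes the 3 Control arrays lay below the other 9.

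**Figure D1:**
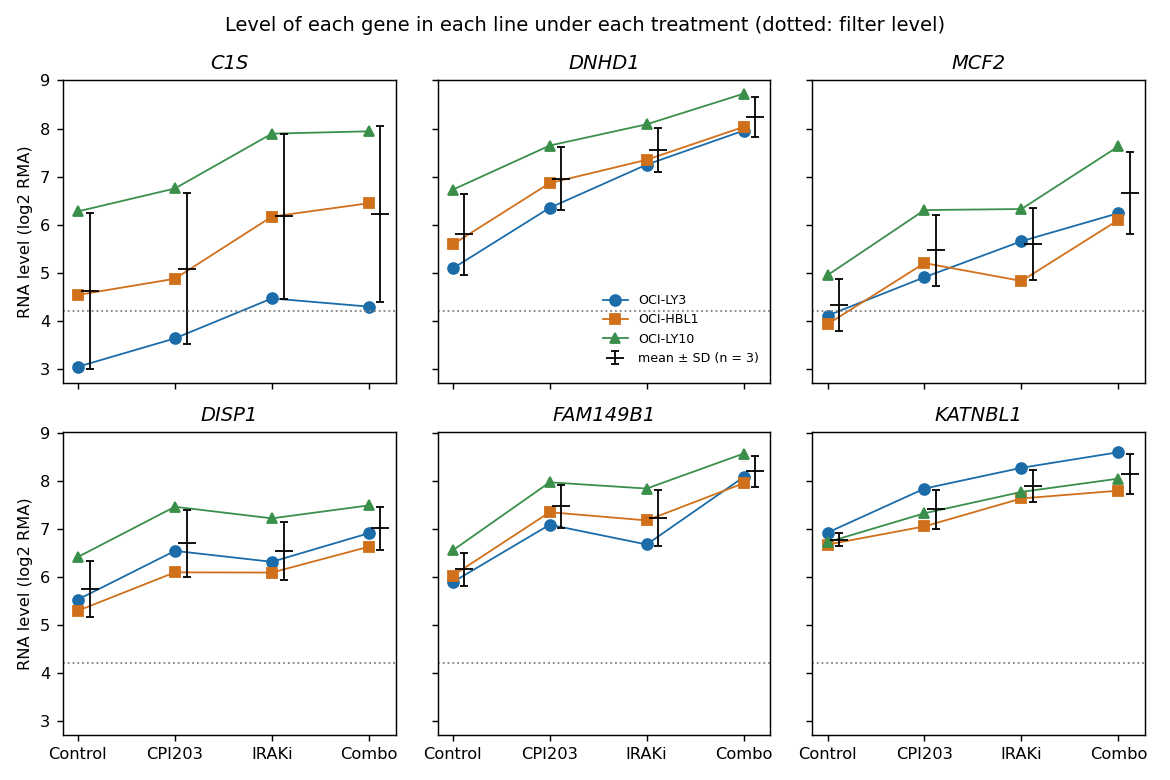
RNA level (log2 RMA) of each of the 6 genes under the 4 treatments, with coloured symbols joined for each of the 3 lines, black marks for the mean ± SD (n = 3) and a dotted line at the filter level of 4.20. Combo has the highest mean in each panel, and the lines lie farthest apart for C1S, where OCI-LY10 exceeded OCI-LY3 by at least 3.12.

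All 6 genes passed the filter on dim genes, a log2 level above 4.20 in at least 3 arrays. DNHD1, DISP1, FAM149B1 and KATNBL1 exceeded it on all 12 arrays. C1S and MCF2 did so on 10, of which 2 and 1 respectively were Control arrays, so MCF2 passed mainly through its treated groups. Changes of C1S in OCI-LY3 and of MCF2 against Control start near or below that level.

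The lines differed in the level of each gene. OCI-LY10 had the highest mean over the 4 treatments for C1S, DNHD1, MCF2, DISP1 and FAM149B1, and OCI-LY3 for KATNBL1. The gap between the highest and lowest line was 3.36 for C1S, 1.29 for MCF2, 1.14 for DNHD1, 1.12 for DISP1, 0.80 for FAM149B1 and 0.62 for KATNBL1 (log2). For C1S the gap was wider than the SD over the treatments of any line (0.65 to 0.94, n = 4). For FAM149B1 it was below that SD in each line (0.80 to 0.91), but the SD includes the treatment differences. Under each treatment OCI-LY10 exceeded OCI-LY3 for FAM149B1, by 0.49 to 1.16. OCI-LY3 and OCI-HBL1, the neighbours for DNHD1, MCF2, DISP1 and FAM149B1, lay within that SD of each other. With 1 array for each line and treatment these gaps were not tested.

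IRAKi alone against Control is taken as the contrast that chose the genes. DNHD1 was higher with IRAKi by 1.76 ± 0.16 (log2 difference ± SE of the limma fit, n = 3), a 3.39-fold difference, C1S by 1.56 ± 0.16, MCF2 by 1.28 ± 0.19, KATNBL1 by 1.12 ± 0.12, FAM149B1 by 1.07 ± 0.14 and DISP1 by 0.79 ± 0.12. The most even was DISP1, with 0.79, 0.79 and 0.80, and the least even DNHD1, with 2.16, 1.76 and 1.36. With the probe sets of a gene averaged, these differences were 0.94 for DNHD1, 0.73 for MCF2, 0.61 for KATNBL1, 0.50 for FAM149B1 and 0.45 for DISP1, since their dimmer probe sets differed less, as the second one of DNHD1 did (0.13). The OCI-LY10 IRAKi array, on which non-specific control probe sets averaged 4.00 against 3.64 to 3.79 on the other 11, enters each of these values. Without it no gene of the array was called in this contrast (1601 had an unadjusted p below 0.05).

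The fit called 0.114% of the 13120 genes tested higher in this contrast, which is 15 genes, and the 6 are among them by choice. It called 7 lower. Scaled to the poly-A control RNA added to each sample, 2 were called higher and 15 lower, and with probe sets averaged by gene 5 and 8. Closest to the threshold of 0.05 on the inside was SNORD72, a small nucleolar RNA, with a log2 difference of 0.90, followed by MCF2 and TNRC6A. Just outside lay AASDH at 0.86, POPDC2 at 0.94 and FCRL5 at 1.18.

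Combo against CPI203 sets cells with both drugs beside cells with CPI203 alone, on 6 arrays outside IRAKi against Control. The genes were chosen with earlier results of these data known. Whether the choice also drew on Combo against CPI203 is not stated, so the calls below are not an independent test. Of the 6 genes, 5 rose. DNHD1 rose by 1.29 ± 0.16 (log2 change ± SE, adjusted p = 0.0093), MCF2 by 1.19 ± 0.19 (adjusted p = 0.0151) and C1S by 1.14 ± 0.16 (adjusted p = 0.00946), which are rises of 2.44-fold, 2.27-fold and 2.21-fold. KATNBL1 rose by 0.74 ± 0.12 (adjusted p = 0.0165) and FAM149B1 by 0.73 ± 0.14 (adjusted p = 0.0225). DISP1 stood at 0.31 ± 0.12 (95% interval 0.05 to 0.57, before adjustment) and did not pass, with an adjusted p of 0.172. With cell line as a random block the call of C1S was lost (adjusted p = 0.125).

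These 5 of 6 calls stand beside 1.96% of all genes tested that were called higher in Combo against CPI203. The 6 may have been chosen with this comparison known, so the shares are a description. Of all genes, 257 were higher and 355 lower, but 78 and 314 with poly-A scaling. All 6 genes were higher in each of the 3 lines, as were 20.2% of all genes tested. By size of change, DNHD1, MCF2 and C1S ranked 49th, 64th and 77th of the 13120, KATNBL1 and FAM149B1 260th and 269th, and DISP1 1630th.

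The changes differed in how evenly the lines shared them. KATNBL1 moved by 0.76, 0.74 and 0.72, an SD of 0.02. C1S moved by 0.66, 1.57 and 1.19, with the smallest value in OCI-LY3, where its level is near the filter. DNHD1 moved by 1.61, 1.17 and 1.08, MCF2 by 1.33, 0.90 and 1.33, and FAM149B1 by 0.99, 0.60 and 0.60. DISP1 stood at 0.37, 0.53 and 0.03, lowest in OCI-LY10.

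**Figure D2:**
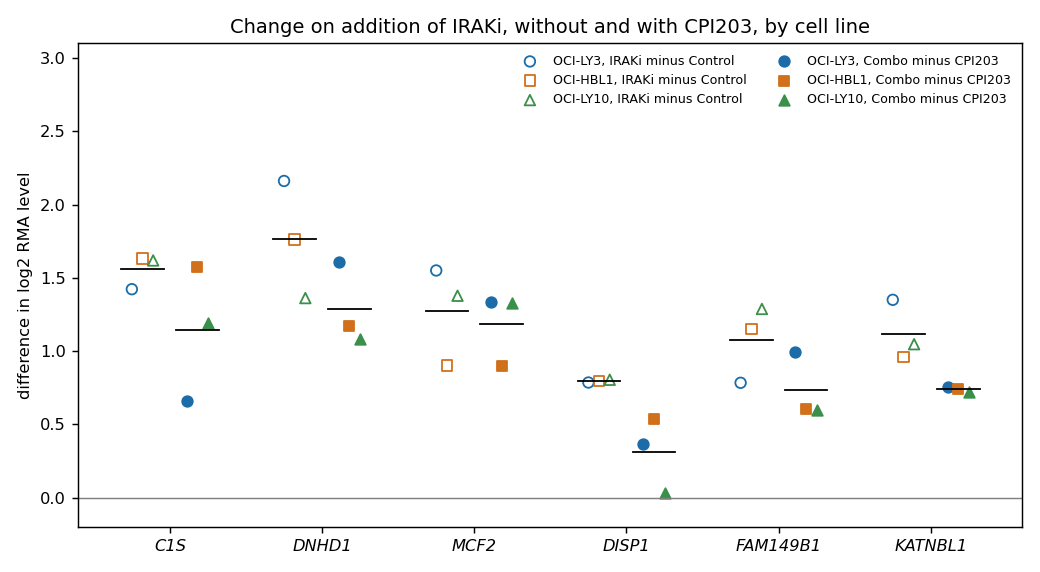
Difference in log2 RMA level on addition of IRAKi for each gene, with 1 symbol for each line and bars at the mean. Open symbols are without CPI203, taken as the contrast that chose the genes, and filled symbols are with CPI203. All 18 filled symbols lie above 0, the lowest being DISP1 in OCI-LY10 at 0.03.

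The calls need all 3 lines. When any single line was left out, limma called none of the 6 (without each in turn, 5, 5 and 6 of them had an unadjusted p below 0.05), with changes that stayed above 0 and adjusted p-values of 0.0721 to 0.170 for the 5 genes other than DISP1. The genes called over the whole array fell from 612 to 0, 3 and 0 at the same time. Because genes chosen for a clear change may also have a low spread in the shared fit, the comparison was fitted on its own 6 arrays as well. There DNHD1 and MCF2 (adjusted p = 0.0367 each), KATNBL1 (0.0492) and C1S (0.0498) were called, and FAM149B1 was not (0.063).

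The poly-A control RNA was higher in Combo than in CPI203 by 0.17 ± 0.40 (log2, SD, n = 3). When the arrays were scaled to it, the median gene moved by -0.18, and DNHD1, MCF2 and C1S stayed called, while FAM149B1 (0.56) and KATNBL1 (0.57) did not. Non-specific control probe sets were 0.04 to 0.08 higher in Combo in the 3 lines, and their part in the changes was not tested.

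Of the other 9 genes called higher in IRAKi against Control, 5 also rose in Combo against CPI203: SNORD72 by 1.18 ± 0.14, PAQR6 by 0.71 ± 0.10, PGM2L1 by 0.53 ± 0.11, OSTM1 by 0.52 ± 0.11 and ZNF264 by 0.51 ± 0.11. The other 4, RNF141, N4BP2L2, TNRC6A and KRABD5, had changes of 0.38, 0.30, 0.24 and -0.01 and did not pass. OSTM1 is a lysosomal membrane protein that partners a chloride transporter.

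**Figure D3:**
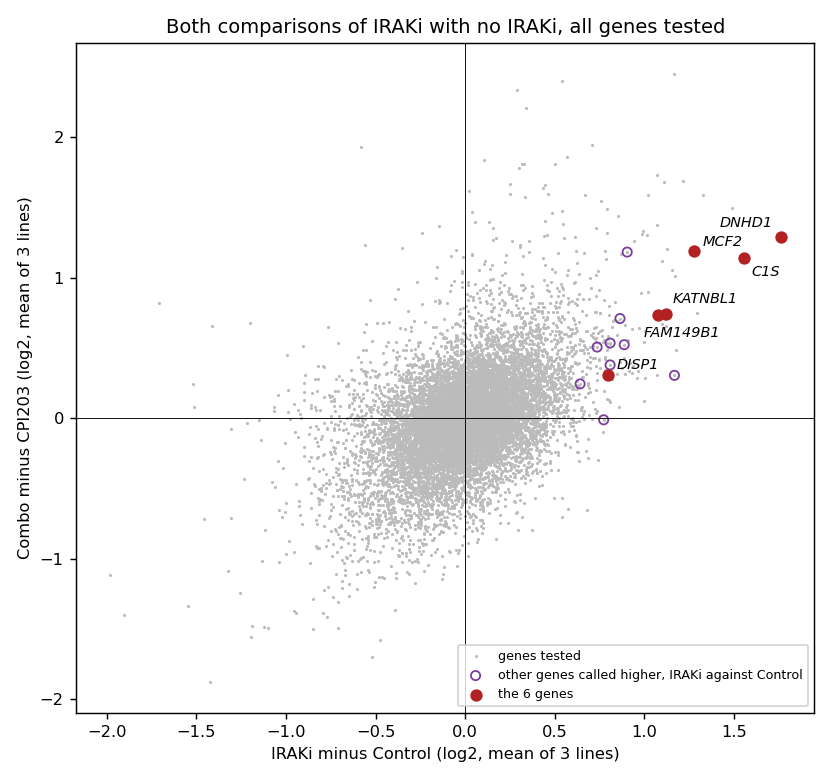
Change in Combo against CPI203 plotted over the change in IRAKi against Control (both log2, means of 3 lines) for 13120 genes in grey, with the 6 genes in red and the other 9 genes called higher in IRAKi against Control as open circles. The axes share no array. The 6 genes lie at 0.79 to 1.76 on the horizontal axis, which is taken to have chosen them. On the vertical axis they lie at 0.31 to 1.29.

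Over all 13120 genes the changes in these comparisons, which share no array but the same 3 lines, had a Pearson r of 0.48 and a Spearman rho of 0.43 across genes, which are not independent replicates.

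CPI203 alone was set beside Control as a description, since the Control arrays are taken to have had a part in the choice. FAM149B1 was higher by 1.31 ± 0.14 (log2 difference ± SE), DNHD1 by 1.15 ± 0.16, MCF2 by 1.14 ± 0.19, DISP1 by 0.95 ± 0.12, KATNBL1 by 0.63 ± 0.12 and C1S by 0.47 ± 0.16. On the probe sets used, each of these 18 differences within a line was above 0. The dimmer DNHD1 probe set stood at 0.003 in the mean of the lines, against 1.15 on the one used. FAM149B1 and DISP1 had larger differences with CPI203 than with IRAKi, and C1S, DNHD1, KATNBL1 and MCF2 had smaller ones. For KATNBL1 this order turned with its probe sets averaged (0.83 with CPI203 and 0.61 with IRAKi) and on its 3 dimmer probe sets. With poly-A scaling the difference with CPI203 was 0.16 for C1S and 0.33 for KATNBL1, and with probe sets averaged it was 0.58 for DNHD1 and 0.70 for MCF2.

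Combo against Control, which shares the same Control arrays, gave larger differences than either agent alone for each gene. With poly-A scaling this did not hold for C1S (1.13 against 1.34 with IRAKi alone) or for KATNBL1 (0.896 against 0.899). DNHD1 was 5.42-fold higher, MCF2 5.02-fold, FAM149B1 4.12-fold, C1S 3.05-fold, KATNBL1 2.59-fold and DISP1 2.40-fold. With poly-A scaling the log2 difference of DISP1 went from 1.26 to 0.79 and that of KATNBL1 from 1.37 to 0.90, and with probe sets averaged that of DNHD1 went from 2.44 to 1.502 and that of DISP1 to 0.80. Against IRAKi alone, Combo was higher by 1.05 ± 0.19 for MCF2, 0.97 ± 0.14 for FAM149B1, 0.68 ± 0.16 for DNHD1, 0.47 ± 0.12 for DISP1 and 0.25 ± 0.12 for KATNBL1 (log2 difference ± SE), and by 0.05 ± 0.16 for C1S. The value of C1S with Combo was thus within its SE of the value with IRAKi alone, and it was below that value with poly-A scaling (-0.20) and without OCI-HBL1 (-0.06). The same scaling took KATNBL1 to -0.003, DISP1 to 0.21 and DNHD1 to 0.42, and averaging the probe sets took KATNBL1 to 0.45.

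The means put the treatments in the order Control, CPI203, IRAKi, Combo for C1S, DNHD1, MCF2 and KATNBL1, and Control, IRAKi, CPI203, Combo for DISP1 and FAM149B1. For MCF2 the means with CPI203 and IRAKi, 5.47 ± 0.74 and 5.60 ± 0.75 (SD, n = 3), lay within the spread between lines, and neither was higher in all 3 lines. The means of DISP1, 6.70 ± 0.70 and 6.54 ± 0.60, and of FAM149B1, 7.47 ± 0.45 and 7.23 ± 0.58, also lay within that spread, but within each of the 3 lines CPI203 was the higher for both genes, barely so for DISP1 in OCI-HBL1.

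The array holds 12 further probe sets for 5 of the genes, all dimmer than the one used. Their mean change in Combo against CPI203 was above 0 for 10 of the 12, and 8 were higher in each line. The 4 further probe sets of MCF2 changed by 0.62 to 1.44, and the single one of DNHD1 by 0.56. The pair for FAM149B1 changed by 0.13 and 0.31, less than the 0.73 of the brightest.

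KATNBL1 was the gene whose probe sets disagreed most. Its brightest changed by 0.74, while the other 3, from brighter to dimmer, changed by 0.09, 0.30 and -0.21, the last of them lower in all 3 lines. With CPI203 alone against Control the same 3 stood higher by 0.95, 1.02 and 0.73, more than the 0.63 of the brightest. When each gene was read as the mean of its probe sets, KATNBL1 stood at 0.23 and FAM149B1 at 0.39 in Combo against CPI203 and neither was called (adjusted p = 0.321 and 0.115). DISP1 had further probe sets at 0.41 and -0.28.

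C1S has no other probe set of its own. One annotated to both EMG1, a ribosome assembly gene, and C1S, read 4.66, 4.72 and 5.49 with CPI203 and 4.87, 4.77 and 5.48 with Combo. It did not show the rise of the C1S probe set, and which of these transcripts it detects was not tested. The name of the C1S probe set ends in s_at, which marks probes that may match more than 1 transcript, and the MCF2 probe set used ends in x_at, which marks possible cross-hybridisation.

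**Figure D4:**
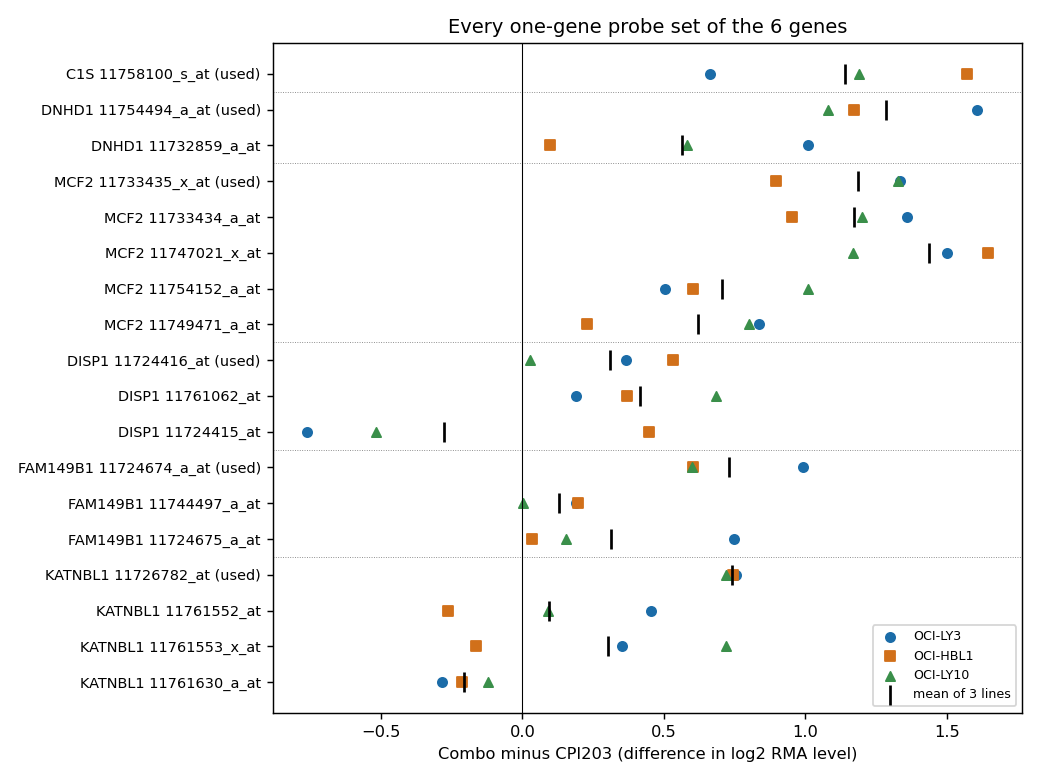
Change in Combo against CPI203 (difference in log2 RMA level) for all 18 one-gene probe sets of the 6 genes, with coloured points for the 3 lines and a black bar for their mean. MCF2 lies above 0 throughout, while the KATNBL1 probe sets range from -0.21 to 0.74.

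The 6 profiles resembled each other once each line's mean was removed. Over the 12 arrays the Pearson r between 2 of the genes ranged from 0.73, for C1S and FAM149B1, to 0.98, for DNHD1 and KATNBL1, with DISP1 and FAM149B1 at 0.97. Every pair shares the arrays and their low Control values, which are taken to have entered the choice, so these values are a description. C1S was least like the others, with r = 0.84 to the mean of the remaining 5.

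Among the other 13114 genes tested, the median r to the mean profile of the 6 was -0.01, and 159 reached 0.9. Most like it were OSTM1 (r = 0.99), PAQR6 (0.98), WDR19, a ciliary transport gene (0.98), WDCP (0.98) and IGBP1, which binds phosphatase 2A (0.98). OSTM1 averaged 7.91 in Control, 8.58 with CPI203, 8.80 with IRAKi and 9.10 with Combo. For single genes the nearest were ABHD10 for C1S, OSGEPL1 for DNHD1, BSDC1 for MCF2, PAQR6 for FAM149B1 and BTBD10 for KATNBL1, with r from 0.98 to 0.99. RPL28, a ribosomal protein gene, was nearest to DISP1 (r = 0.98) but spanned only 14.08 to 14.19 in its group means.

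Relatives of each gene were read from 6 lists. Of 141 relatives tested, 4 rose and 2 fell in Combo against CPI203, which is 2.84% and 1.42%, beside 1.96% and 2.71% of all genes tested. Their median change was 0.03, against -0.01 over all genes. In IRAKi against Control limma called none of the 141, beside 0.114% called higher and 0.0534% called lower of all genes. Of the 141, 21 had an unadjusted p below 0.05, a share similar to the 2018 of all 13120 genes.

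Among 24 dynein chain genes tested, DNAH12 and DNAH10, axonemal heavy chains of cilia and sperm tails, rose in Combo against CPI203 by 1.86 ± 0.38 (adjusted p = 0.0308) and 1.66 ± 0.33 (adjusted p = 0.0279), from mean levels of 3.73 and 3.96 with CPI203, below the filter level. None fell, 22 did not pass, and the list's median was 0.12. Among 13 genes of katanin and microtubule severing, NDEL1, a dynein and katanin partner, rose by 1.19 ± 0.17 (adjusted p = 0.0106), and KATNAL2, a katanin catalytic subunit, by 0.91 ± 0.22 at the edge of the threshold (adjusted p = 0.049998). None fell, and the median was 0.07. In IRAKi against Control NDEL1 stood at 0.78 and DYNC2I1, a subunit of the ciliary dynein, at 1.00, and neither passed.

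Of 16 complement genes tested, CD59, which blocks the membrane attack complex, fell by 0.47 on the log2 scale (SE 0.11, adjusted p = 0.0484), none rose and 15 did not pass (median 0.14). Of 32 cilium and Joubert syndrome genes, TMEM138 of the ciliary transition zone fell by 0.79 (SE 0.11, adjusted p = 0.0106), none rose and 31 did not pass (median 0.003). None of 43 Dbl family exchange factors passed (9 with an unadjusted p below 0.05, median -0.01), the lowest p being that of ARHGEF39 at -0.96 ± 0.26. None of 15 Hedgehog pathway genes passed (2 with an unadjusted p below 0.05, median -0.09), with SUFU, a repressor of the pathway, nearest at 0.57 ± 0.14. Of all 13120 genes tested, 2723 had an unadjusted p below 0.05 in Combo against CPI203. In IRAKi against Control the genes with the lowest p in these lists were CD59 at -0.23, KATNIP at 0.96, ADAM17 at 0.55 and ARHGEF39, with mean levels of 5.86 in IRAKi and 6.86 in Control, and none passed.

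The B cell label was checked against markers. CD79A, CD79B, MS4A1, PAX5 and CD22 lay above the filter level on all 12 arrays, with means of 6.92 to 12.3. T cell markers had means of 3.72 to 4.38, and myeloid markers of 3.70 to 4.62. Fibroblast markers had means of 3.46 to 4.21, and their summed level was 6.29 to 6.39 with CPI203 and 6.24 to 6.28 with Combo. Of 4 liver markers, chosen because the liver makes C1S, FGB was below the filter level on all arrays, but ALB was 5.43, 5.17 and 7.27 with Combo against 3.37, 3.51 and 4.38 with CPI203. APOA1 stayed between 3.95 and 4.46 and TTR between 4.08 and 4.66 over the 12 arrays, so neither moved as far as ALB. The summed level of the 4, which includes ALB, was 5.88 to 6.16 with CPI203 and 6.41 to 7.70 with Combo. Its part in the C1S change was not tested. In bulk RNA, fewer cells with a transcript and less of it per cell cannot be told apart.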

How the data were processed

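Levels of 12 arrays were used as deposited, on a log2 scale. The authors made these log2 values with RMA in Affymetrix Expression Console 1.1, per the submitters' processing notes, from 150 ng of total RNA per sample. The probe library is not given in the sources used here. Of 49386 probe sets, the 45253 annotated to 1 gene were used, with symbols updated by gene identifier, and each gene was read from its probe set with the highest mean. Genes above the 40th percentile of all values (4.20) in at least 3 arrays were tested, 13120 of 18239.

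All 12 arrays were fitted with limma 3.58.1 in R 4.3.3, with treatment and cell line as terms. Tests were two-sided, adjusted by Benjamini-Hochberg over all genes tested and called below 0.05. The number of arrays limits the precision. Cell line pairs the samples: deviations from the group means correlated at 0.819 to 0.907 between arrays of a line. The fit was tested on simulated data.

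The 6 genes and the lists were chosen with earlier results of these data known. Named were the 6, the other genes called higher in IRAKi against Control, the 5 genes nearest to the mean line-centred profile and the 1 nearest to each gene, and of each list up to 3 called relatives in a comparison, or the one with the lowest p. AASDH, POPDC2, FCRL5 and EMG1 were named after their values were seen. Alternatives covered the probe set, filter, scaling, variance model, block, groups fitted and arrays left out.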

Additional observations from a re-analysis of the deposited data

Results flagged for a closer look

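The lines moved in different directions for 1 gene in 1 comparison. From IRAKi alone to Combo, C1S was lower in OCI-LY3 (-0.171) but 0.278 higher in OCI-HBL1 and 0.048 higher in OCI-LY10 (log2, 1 array against 1 array in each line). The difference between the lines was not tested.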

How the results depend on the processing

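The 6 changes in Combo against CPI203 stayed above 0 under all 13 alternatives, and DISP1 was called in none. Of the 6, 3 were called with probe sets averaged by gene, 3 with poly-A scaling, 0 with no replicate block (treatment as the single term, where 2 of the 6 had an unadjusted p below 0.05) and 0 without any 1 line. With cell line as a random block 4 were called, C1S being lost (adjusted p = 0.125). Genes called in Combo against CPI203 numbered 612, but 392 with poly-A scaling (78 higher and 314 lower, against 257 and 355), 954 with trend and robust estimation, 2 with no replicate block, 198 with only the 2 groups fitted and 0 to 3 without 1 line. In IRAKi against Control 22 were called, 15 higher and 7 lower, but 13 with the mean of the probe sets, 17 with poly-A scaling (2 higher and 15 lower), 66 with the filter at the 60th percentile, 220 with trend and robust estimation, 11 with the random block, and 0 with no replicate block, with only the 2 groups, without the OCI-LY10 IRAKi array and without any 1 line (295, 1995, 1601 and 1227 to 1791 genes with an unadjusted p below 0.05). Relatives called in Combo against CPI203 numbered 6, but 3 with the mean of the probe sets and 0 with no replicate block or without any 1 line. From IRAKi to Combo, KATNBL1 went from 0.25 to -0.00287 and C1S from 0.05 to -0.20 with poly-A scaling. By Spearman's rho, 0 of the 5 nearest genes were among the 5 by Pearson's r, with BBS7, CLK3, MFAP3 and OSGEPL1 first at 0.98. Levels near the filter limit what can be seen of MCF2 and of C1S in OCI-LY3.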
